A study of Homo sapiens with 12 samples.

Results

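The fibroblast growth factor (FGF) genes described here are the ligands FGF1, FGF2 and FGF5, the signalling receptors FGFR1, FGFR2, FGFR3 and FGFR4, the receptor-like protein FGFRL1 and the binding protein FGFBP1. They were chosen by gene name, and all 9 were found among the 60504 genes listed in each deposited table. The libraries came from T24, an established cell line from a human bladder carcinoma. RNA was sequenced in 12 libraries to ask how gene expression differs when U11 is knocked out or overexpressed. U11 is the small nuclear RNA that recognises the 5′ splice site of rare U12-type introns. Libraries labelled U11 knockout (2) were compared with 2 T24 libraries labelled untreated (controls 1 and 2). Libraries labelled U11 overexpression (6), which are 2 for each of the line labels 79, 86 and 87, were compared with another 2 T24 libraries labelled untreated (controls 3 and 4). The methods name cells with the sgRNA vector as the control of the knockout transfection, so what controls 1 and 2 received is uncertain. All groups thus shared the T24 background. The methods describe Cas9 with a pair of guide RNAs for the knockout and a pcDNA-U11 plasmid for the overexpression, and in both cases monoclonal lines were picked, so that a line and its clone cannot be told apart. What the line labels stand for is not given in the sources used here, nor whether libraries came from separate cultures, so P values measure only the spread between these libraries, which may be technical.

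FGF ligands are secreted proteins that bind, together with heparan sulfate chains, to receptor tyrosine kinases on the cell surface. The activated receptor phosphorylates the docking protein FRS2 and signals through RAS and the MAP kinases to transcription factors of the ETV family and to feedback inhibitors such as the Sprouty and SPRED proteins. In the bladder, activating mutations of FGFR3 are common in low-grade tumours, and FGFR1 is known to be expressed in bladder cancer cells with mesenchymal features.

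The upstream sequences of the 3 members that passed the thresholds in the knockout comparison are shown here, picked after that result was seen. They are RefSeq sequences of GRCh38.p14, 5′ to 3′ in the direction of transcription, and end at the base before the most upstream annotated start. Capitals mark matches on either strand to the GC box GGGCGG. The AP-1 motif TGACTCA and TATAAA were searched on both strands as well.
FGF1, chr5:142698071-142698320, minus strand: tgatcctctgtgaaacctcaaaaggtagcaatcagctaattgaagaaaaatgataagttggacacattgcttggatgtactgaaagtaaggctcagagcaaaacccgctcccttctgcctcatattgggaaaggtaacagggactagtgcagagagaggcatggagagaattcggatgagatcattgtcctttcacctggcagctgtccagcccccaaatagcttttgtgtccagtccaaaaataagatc
FGF2, chr4:122826581-122826681, plus strand: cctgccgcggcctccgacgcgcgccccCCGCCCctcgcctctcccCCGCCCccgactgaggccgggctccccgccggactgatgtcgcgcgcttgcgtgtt
FGFBP1, chr4:15938741-15938990, minus strand: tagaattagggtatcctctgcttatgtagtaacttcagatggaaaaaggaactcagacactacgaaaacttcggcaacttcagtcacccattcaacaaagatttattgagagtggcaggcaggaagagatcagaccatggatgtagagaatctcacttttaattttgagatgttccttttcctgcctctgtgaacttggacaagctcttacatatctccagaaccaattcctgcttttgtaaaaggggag

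The 101 bases before FGF2 held 2 GC boxes and a GC content of 80.2%. This window is shorter than the 250 bases of the other promoters. The 250 bases before the RefSeq start of FGF2 held 3 GC boxes and a GC content of 75.2%. The 250 bases before the most upstream start of FGF1 and before FGFBP1 held none of the 3 motifs, with GC contents of 44.8% and 40.8%. RefSeq listed 4 start sites for FGF1, of which the most upstream is shown. The windows before its other starts held no motif (142698021), 1 GC box (142686090), and 1 GC box with 1 AP-1 motif (142644239). Of 35116 RefSeq promoters, 42.6% held a GC box, 4.20% the AP-1 motif and 10.7% TATAAA within 250 bases of the start, and their median GC content was 58.0%. RefSeq promoter sequences were found for 8 of the 9 members. No intron of the members was of the U12 type by its 5′ end (at least 60 bases long and starting with ATATCCTT or GTATCCTT), 0 of 198 introns, while 809 of 402166 introns of all genes were, in 631 genes.

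Levels are given as TPM, Stringtie's measure of transcript abundance per transcript length, summing to a common total per library. Aligned bases ranged from 9.07 to 15.33 gigabases a library. The sets of the 2 comparisons differed in composition, because the 10 most abundant genes held 45.5% to 49.6% of all TPM in the knockout set and 7.06% to 7.56% in the overexpression set. U11 itself ranged from 21.4 to 23.8 TPM in controls 1 and 2 but from 31.6 to 37.4 TPM under the knockout label (exact permutation p = 0.333, two-sided, the smallest that 2 libraries against 2 allow). The level of U11 thus went against the knockout label, and the directions given for this comparison rest on the label. In the overexpression set U11 stood at 0.0334 to 0.623 TPM in the controls, 0.183 to 0.412 TPM in line 79, 3.72 to 3.98 TPM in line 86 and 53.6 to 61.9 TPM in line 87 (overexpression label against controls, exact permutation p = 0.286, two-sided). These values are sums over 2 U11 entries, and most of the signal of lines 86 and 87 lay in the shorter entry. The longest entry alone held 0.00555 to 0.0334 TPM in controls 3 and 4 and 0.0085 to 0.183 TPM in line 79. It held 0.101 to 0.118 TPM in line 86 and 1.43 to 1.64 TPM in line 87 (overexpression label against controls, exact permutation p = 0.143, two-sided). Lines 79 and 86 thus overlapped on that measure, and line 79 overlapped controls 3 and 4 on both measures. Of the cell type markers, the keratins KRT7, KRT8, KRT18 and KRT19 and the mesenchymal genes VIM, FN1 and CDH2 were at or above 90.3 TPM in every library. CDH1 and the uroplakins UPK1B, UPK2 and UPK3A, which mark differentiated epithelium and urothelium, reached at most 0.437 TPM. Of the other urothelial and epithelial markers, PPARG ranged from 18.9 to 54.5 TPM and GATA3 from 2.38 to 17.4 TPM, while EPCAM reached at most 2.32 TPM. The blood markers PTPRC, CD3E and CD14 and the endothelial marker PECAM1 reached at most 1.18 TPM, and the endothelial marker CDH5 ranged from 0.0293 to 34.1 TPM.

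The FGF genes of T24 cells were dominated by a single ligand and a single signalling receptor. FGF2, the basic FGF, made up 58.4% to 88.2% of the summed TPM of the 3 ligands. FGFR1 made up 75.5% to 91.3% of the summed TPM of the 4 signalling receptors. FGFRL1, which binds FGF but lacks the kinase domain, was 2.72 to 6.03 times as abundant as FGFR1 in TPM. In 10 of 12 libraries the order of levels was FGF2, FGFRL1, FGF5 and FGFR1. In library 86-1 FGFRL1 stood above FGF2, and in library 79-1 FGF5 stood above FGFRL1. Among the genes with at least 1 TPM (13552 to 14861 a library), FGF2 was higher than 84.1% to 97.2% of them and FGFR1 than 33.5% to 57.3%. FGFR1 was the 1 signalling receptor with at least 1 TPM in every library. In bulk libraries such as these, fewer cells with a transcript and less of it per cell cannot be told apart.

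**Figure D1:**
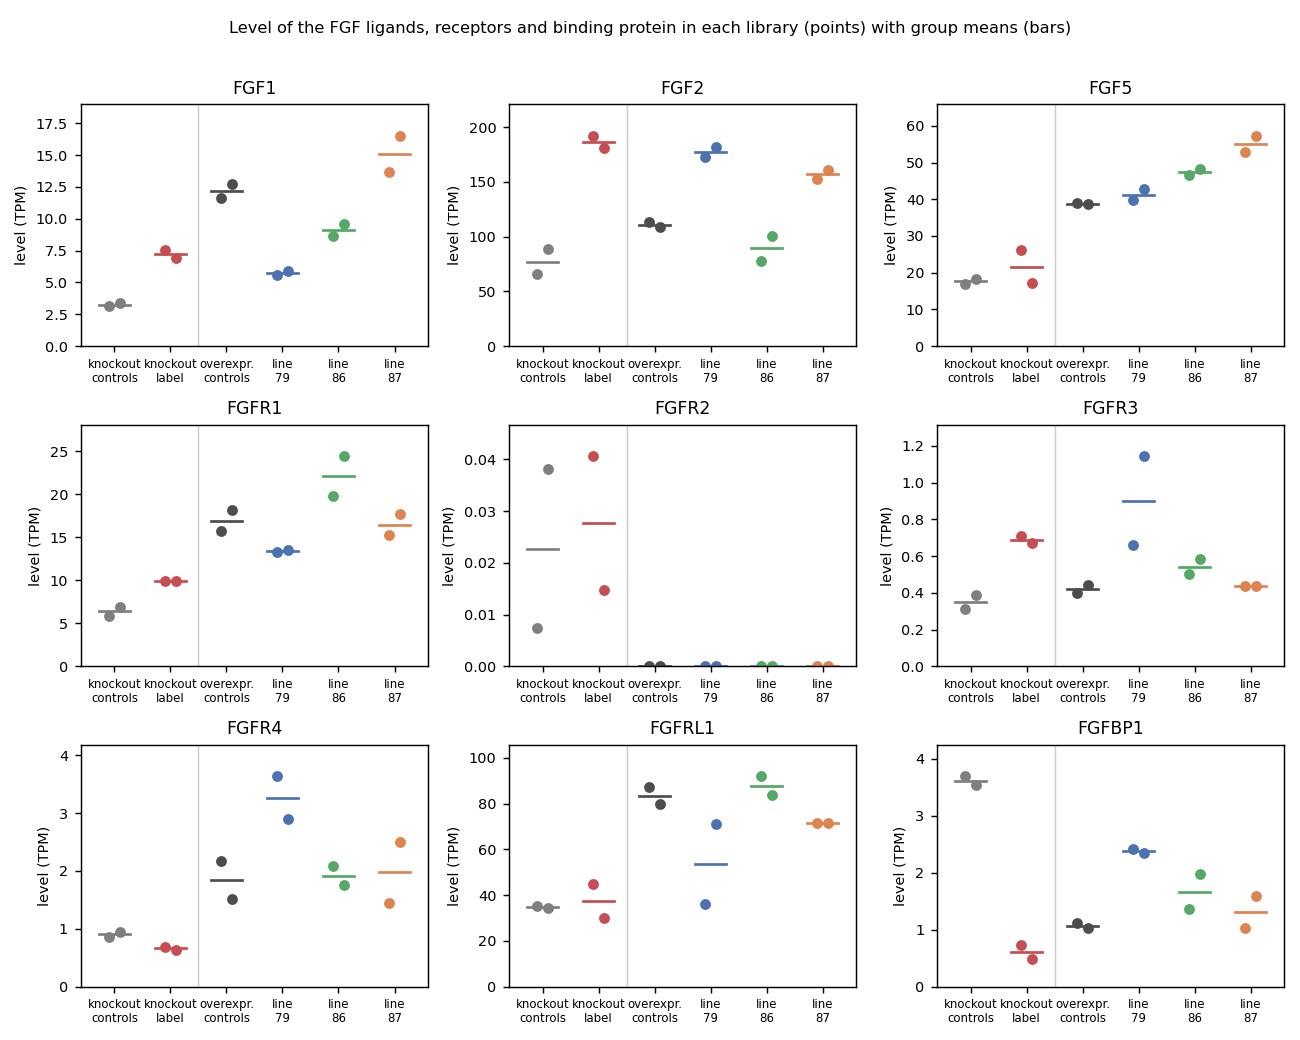
Level of each member in TPM (vertical axes, from 0) in the 12 libraries. Points are libraries, horizontal bars are means of 2 libraries, and the vertical line parts the knockout set from the overexpression set, which differ in composition. FGF2 reached 192 TPM and FGFR2 at most 0.041 TPM.

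Under the U11 knockout label the ligands FGF1 and FGF2 rose and the binding protein FGFBP1 fell, while FGF5 and FGFRL1 did not pass the test and FGFR1 fell just short of the fold required. Calls needed a fold of 1.5 or more on the log2(TPM + 1) scale together with an unadjusted P under 0.05, the thresholds of the study. Genes with at least 1 TPM in at least 2 of the libraries compared were tested, which took in 6 of the 9 members, and 3 of these were called. Of all 14356 genes tested, 11.8% were called. The called members were 2 higher and 1 lower, beside 8.61% higher and 3.15% lower among all genes. All 3 also had an adjusted P under 0.05 (limma, Benjamini-Hochberg over all genes tested), as did 6.85% of all genes with the same fold threshold. FGFBP1 passed the filter on low values through the controls alone and so had to differ, which leaves FGF1 and FGF2 as the calls that the filter did not favour. The median difference was 0.41 over the 6 members tested and 0.11 over all genes tested, both on the log2(TPM + 1) scale.

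FGF2 is a mitogen for many cell types and is released without a signal peptide. It lies on chromosome 4 from 122826708 to 122898236, plus strand, of hg38 in the deposited tables. Its level was 65.6 and 88.5 TPM in controls 1 and 2 and 192 and 181 TPM in the libraries labelled knockout. The groups did not overlap, and the mean rose from 77.0 ± 16.2 to 186 ± 7.92 TPM (SD, n = 2 each), a ratio of 2.42. The log2 difference was 1.28 (SE 0.16, limma adjusted P = 0.0228).

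FGF1, the acidic FGF, binds all of the FGF receptors. It lies on chromosome 5 from 142592178 to 142698070, minus strand. Its level was 3.14 and 3.39 TPM in the controls and 7.56 and 6.88 TPM in the libraries labelled knockout. Here too the groups were apart, with means of 3.26 ± 0.174 and 7.22 ± 0.478 TPM, a ratio of 2.21, and a log2 difference of 0.95 (SE 0.12, limma adjusted P = 0.0251). The third ligand, FGF5, known as a regulator of the hair cycle, held 17.0 and 18.3 TPM in controls 1 and 2, against 26.1 and 17.2 TPM under the knockout label. These groups overlapped, and the log2 difference of 0.25 (SE 0.21, limma adjusted P = 0.469) was within the spread between libraries.

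The 4 signalling receptors together held less TPM than the 3 ligands in each of the 12 libraries, although FGFR1 stood above FGF1 in all of them. FGFR1 held 5.87 and 6.87 TPM in controls 1 and 2, against 9.91 and 9.92 TPM in the libraries labelled knockout. The groups did not overlap, but the fold of 1.48 on the log2(TPM + 1) scale lay just under the threshold of 1.5, with a log2 difference of 0.57 (SE 0.13, limma adjusted P = 0.0642). The ratio of mean TPM was 1.56, and FGFR1 was called with a pseudocount of 0.1 or without control 2. FGFR3, the receptor mutated in many bladder tumours, held 0.310 and 0.391 TPM in controls 1 and 2, against 0.708 and 0.670 TPM under the knockout label. FGFR4 ran the other way, with 0.856 and 0.946 TPM in controls 1 and 2 against 0.688 and 0.632 TPM under the knockout label. Neither reached 1 TPM in any library of this set, so neither was tested. FGFR2, whose splice forms mark epithelial and mesenchymal cells, was at 0.041 TPM or less in all 4 libraries and was not tested.

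FGFRL1 held 35.4 and 34.3 TPM in controls 1 and 2, against 44.8 and 30.1 TPM under the knockout label. The groups overlapped, and its log2 difference of 0.07 (SE 0.20, limma adjusted P = 0.834) changed sign with the scaling, to -0.07 with median ratio scaling and -0.03 with FPKM. FGFBP1, a secreted protein that frees FGF from the extracellular matrix, lies on chromosome 4 from 15935569 to 15938740, minus strand. Controls 1 and 2 held 3.69 and 3.55 TPM of it, and the libraries labelled knockout 0.736 and 0.488 TPM. The mean fell from 3.62 ± 0.102 to 0.612 ± 0.176 TPM (SD, n = 2 each), a 5.92-fold lower mean, with a log2 difference of -1.52 (SE 0.14, limma adjusted P = 0.0144). Its filter rested on the controls, and it was not tested when either control was left out.

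**Figure D2:**
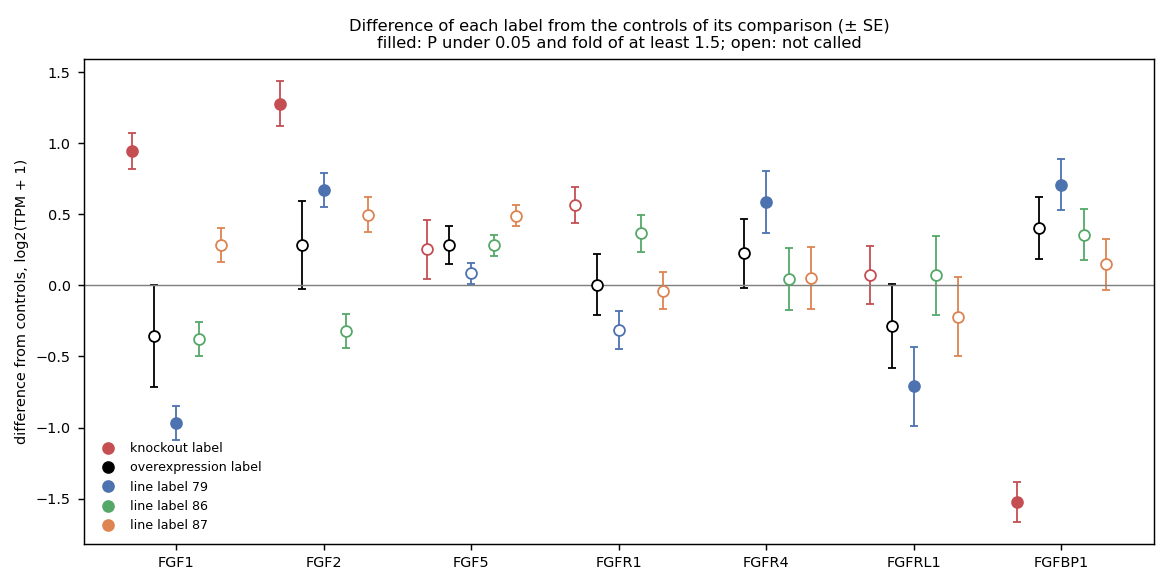
Difference of each label from the controls of its own comparison on the log2(TPM + 1) scale (vertical axis) for the 7 members tested in at least 1 comparison. Error bars are limma standard errors, filled points were called and open points were not, and the line labels and the overexpression label share controls 3 and 4. In the knockout comparison FGF2 (1.28) and FGF1 (0.95) lie above 0 and FGFBP1 (-1.52) below.

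The median of all genes in the knockout comparison lay at 0.11 on the log2(TPM + 1) scale and at -0.02 after median ratio scaling. Relative to the median of all genes, the differences were 1.17 for FGF2, 0.84 for FGF1, 0.46 for FGFR1 and -1.63 for FGFBP1. Over all genes, the calls were 1236 higher and 452 lower in TPM, 773 higher and 775 lower after median ratio scaling, and 725 higher and 570 lower in FPKM. FGF1, FGF2 and FGFBP1 were called with FPKM and with median ratio scaling too. Other entries of the tables overlap the ligand genes, and whether reads were counted by strand is not given in the sources used here. NUDT6, on the opposite strand of FGF2, reached 6.52 TPM, and a processed pseudogene on the same strand (RP11-170N16.2) reached 4.60 TPM. From controls 1 and 2 to the knockout label, their means went from 3.31 to 4.80 TPM and from 2.12 to 3.95 TPM. A further entry on the opposite strand of FGF2, RP11-170N16.3, went from 0.831 to 1.85 TPM. Whether these entries share reads with FGF2 was not tested. The entries overlapping FGF1 (AC005592.2) and FGF5 (C4orf22) reached 0.948 and 1.27 TPM. Between the same groups their means went from 0.529 to 0.433 TPM and from 0.543 to 1.14 TPM.

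With the 6 libraries labelled overexpression as 1 group, no member was called. Of the 9 members 7 were tested and 0 were called, beside 1.93% of all 15768 genes tested, so 0 of 7 does not set the members apart. No member had an unadjusted P under 0.05 (limma) at any fold, a share that was not computed over all genes. FGF5 had the lowest P of the members. It stood at 38.9 and 38.8 TPM in controls 3 and 4, and in the libraries labelled overexpression the lowest was 39.8, the median 47.4 and the highest 57.2 TPM. All 6 libraries lay above both controls, yet the log2 difference was 0.29 (SE 0.13, limma adjusted P = 0.858). Within each of the 2 library code series, which join 1 control and 1 library of each line label, the FGF5 difference was 0.24 and 0.33. FGFBP1 ranged from 1.03 to 2.41 TPM in the libraries labelled overexpression, with a median of 1.78 TPM, and stood at 1.11 and 1.02 TPM in the controls (log2 difference 0.41, SE 0.22, limma adjusted P = 0.889).

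The remaining members spread to both sides of the controls. FGF1 ranged from 5.57 to 16.5 TPM, with a median of 9.15 TPM, around control values of 11.6 and 12.7 TPM (log2 difference -0.35, SE 0.36, limma adjusted P = 0.925). FGF2 ranged from 77.6 to 182 TPM, with a median of 157 TPM, around control values of 113 and 109 TPM (log2 difference 0.28, SE 0.31, limma adjusted P = 0.925). For FGFR1 the 6 libraries ranged from 13.3 to 24.4 TPM and the controls stood at 15.7 and 18.1 TPM, with a log2 difference of 0.01 (SE 0.22). The line labels were next compared with each other.

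FGF1, FGF2 and FGFR1 differed between the line labels. The test was limma's F test over the 3 labels with a fold of at least 1.5 between the highest and the lowest label, and 3 of 7 members tested were called, beside 14.6% of all genes. All 3 also passed at an adjusted P under 0.05, beside 10.8% of all genes. The count was 2 without library 86-3 and 5 without library 87-3.

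FGF1 was lowest in line 79, at 5.57 and 5.90 TPM, followed by line 86 at 8.68 and 9.62 TPM. The controls (11.6 and 12.7 TPM) came next, and line 87 was highest at 13.7 and 16.5 TPM. No neighbours in this order overlapped. The labels spanned 1.25 on the log2(TPM + 1) scale (limma adjusted P = 0.0033), and FGF1 was lower in line 79 than in line 87 in both library code series.

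FGF2 was lowest in line 86, at 77.6 and 101 TPM, and the controls (113 and 109 TPM) came next. Line 87 held 153 and 161 TPM and line 79 held 173 and 182 TPM, and again no neighbours overlapped. The labels spanned 0.99 (limma adjusted P = 0.0063). The 2 ligands thus had different orders, with line 79 lowest in FGF1 and highest in FGF2. The ratio of FGF2 to FGF1 in TPM was 30.8 and 31.1 in line 79, against 8.95 to 11.2 in lines 86 and 87 and 8.52 and 9.76 in the controls.

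FGFR1 was lowest in line 79, at 13.3 and 13.5 TPM. Line 87 (15.3 and 17.6 TPM) and the controls (15.7 and 18.1 TPM) overlapped, and line 86 was highest at 19.8 and 24.4 TPM. The labels spanned 0.68 (limma adjusted P = 0.0370), but without library 86-3 the span was 0.53 and FGFR1 was not called. FGF5 had a smaller span of 0.41 (limma adjusted P = 0.0320), a fold of 1.32 that did not reach the threshold. Its level was 39.8 and 42.7 TPM in line 79, 46.7 and 48.1 TPM in line 86 and 52.8 and 57.2 TPM in line 87.

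**Figure D3:**
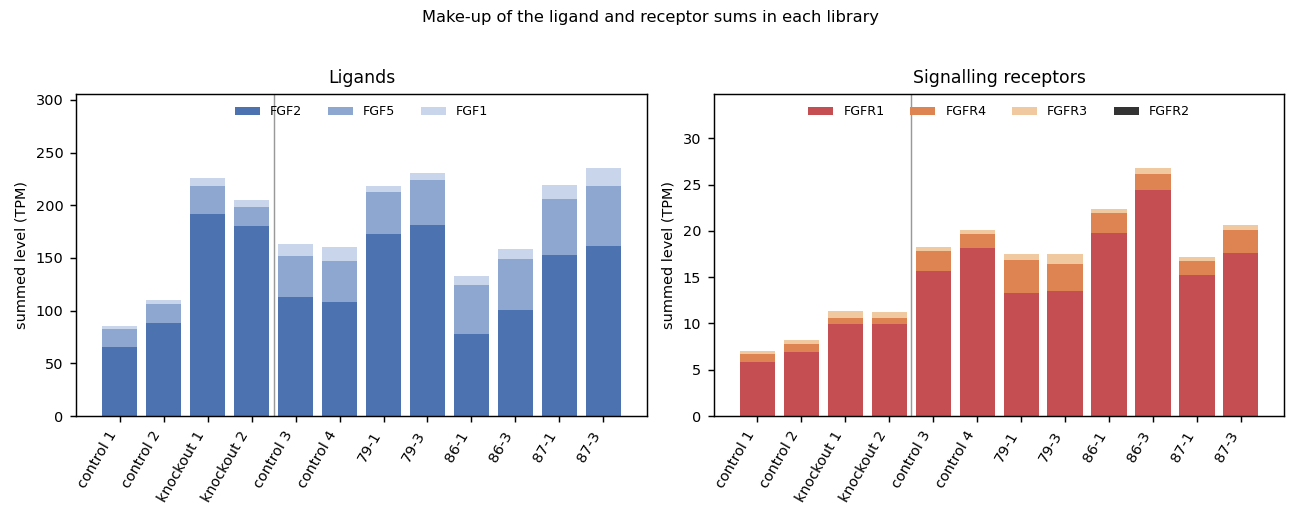
Summed TPM (vertical axes, from 0) of the 3 ligands (left) and the 4 signalling receptors (right) in each library, stacked by gene; the vertical line parts the knockout set from the overexpression set. FGF2 and FGFR1 form the largest part of each bar, FGFR4 is most visible in line 79, and FGFR2 is too low to be seen.

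Each line label was also set against controls 3 and 4, which the 3 contrasts share. The U11 level of line 79 overlapped that of these controls. In line 79, 5 of 7 members tested were called, beside 7.95% of all genes, with 3 higher (2.43% of all genes) and 2 lower (5.52%). At an adjusted P under 0.05 there were 2, beside 5.63% of all genes. These were FGF1, with a log2 difference of -0.97 (SE 0.12, limma adjusted P = 0.00577), and FGF2, with 0.67 (SE 0.12, limma adjusted P = 0.0210). The other calls in line 79 were FGFBP1, FGFR4 and FGFRL1. FGFBP1 stood at 2.41 and 2.34 TPM against 1.11 and 1.02 TPM in the controls (log2 difference 0.71, SE 0.18, limma adjusted P = 0.0599).

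FGFR4, a receptor best known from the liver, stood at 3.63 and 2.90 TPM in line 79, against 2.17 and 1.52 TPM in the controls (log2 difference 0.59, SE 0.22, limma adjusted P = 0.164). FGFRL1 stood at 36.1 and 70.9 TPM in line 79, against 87.3 and 79.7 TPM in the controls (log2 difference -0.71, SE 0.28, limma adjusted P = 0.182). Its pair of libraries differed widely, and without library 79-1 the FGFRL1 difference was -0.23 and was not called. The calls of FGFR4 and FGFRL1 were also lost without control 4 or with the library code series as a block, and that of FGFRL1 without control 3. The count of members called was 3 without library 79-1 or without control 4.

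In line 86, 0 of 7 members tested were called, beside 3.6% of all genes. FGF1 (-0.38), FGF2 (-0.32), FGF5 (0.28) and FGFR1 (0.37 on the log2 scale) had an unadjusted P under 0.05 (limma) but folds under 1.5. Their adjusted P values ran from 0.168 to 0.327. In line 87, 0 of 7 were called, beside 5.13% of all genes. FGF5 and FGF2 had an unadjusted P under 0.05 (limma) there. The share of all genes with such a P at any fold was not computed for either line. FGF5 differed by 0.49 (SE 0.08, limma adjusted P = 0.0244), a fold of 1.40. FGF2 differed by 0.50 (SE 0.12, limma adjusted P = 0.0924), a fold of 1.41.

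FGFR3 ranged from 0.401 to 1.14 TPM over the 8 libraries of the overexpression set. It reached 1 TPM in library 79-3 alone and was not tested. FGFR2 was listed at 0 in all 8 libraries. The order of the labels for FGFRL1 and FGFBP1 was not separated by the F test, with spans of 0.78 (limma adjusted P = 0.207) and 0.56 (limma adjusted P = 0.164).

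The controls of both comparisons are labelled as untreated T24 cells, and their levels are set side by side without a test because the sets differ in composition. In TPM, controls 3 and 4 were higher than controls 1 and 2 for FGF1 (ratio of means 3.73), FGFR1 (2.65), FGFRL1 (2.39), FGF5 (2.20), FGFR4 (2.05), FGF2 (1.44) and FGFR3 (1.20), and lower for FGFBP1 (0.295). After rescaling over protein-coding genes without histone and mitochondrial genes, the ratios were 1.72 for FGF1, 1.22 for FGFR1, 1.10 for FGFRL1, 1.01 for FGF5, 0.942 for FGFR4, 0.664 for FGF2, 0.555 for FGFR3 and 0.135 for FGFBP1. The direction for FGF2, FGFR3 and FGFR4 thus turned with the rescaling. FGFBP1 was lower in controls 3 and 4 and FGF1 was higher in them on both scales.

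The wider pathway was followed through 5 lists with 83 genes in all. The first list held 19 other genes of the FGF family, not all of them for secreted ligands. None of these was tested in the knockout comparison, and the most abundant, FGF12, which stays inside the cell, had a mean of 0.461 TPM over the 12 libraries. In the overexpression comparison FGF11 alone was tested and was called, at 1.17 and 1.00 TPM in the controls and between 0.0337 and 0.652 TPM in the libraries labelled overexpression (log2 difference -0.69, SE 0.20, limma adjusted P = 0.526). It passed the filter through the controls alone.

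Over all lists, 53 genes were tested in the knockout comparison, of which 8 were called higher and 2 lower, beside 8.61% higher and 3.15% lower among all genes. Of these 10, 7 had an adjusted P under 0.05, beside 6.85% of all genes, but 3 of the 7 (FLRT2, SULF2 and EGR1) passed the filter through a single group and so had to differ. The median difference was 0.14 over these genes and 0.11 over all genes tested. Among the 8 tested of 15 binding proteins and co-receptors, 3 were called, all higher. The heparan sulfate proteoglycan SDC1 had the highest mean of its list (179 TPM over the 12 libraries) and rose from 81.9 to 131 TPM (log2 difference 0.67, limma adjusted P = 0.0280). GPC1, a proteoglycan anchored to the membrane, rose from 21.7 to 34.6 TPM (0.65, limma adjusted P = 0.0399). FLRT2, a membrane protein of the family that binds FGF receptors, rose from 0.819 to 3.56 TPM (1.32, limma adjusted P = 0.0234) and passed the filter through the libraries labelled knockout alone.

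Among the 10 tested of 13 genes for heparan sulfate synthesis and editing, SULF2 was the 1 gene called. SULF2, which removes sulfate groups from heparan sulfate outside the cell, held 4.66 and 5.28 TPM in controls 1 and 2, against 0.181 and 0.167 TPM in the libraries labelled knockout. The log2 difference was -2.34 (SE 0.13, limma adjusted P = 0.00636), and SULF2 passed the filter through the controls alone. EXT2, a polymerase of the heparan sulfate chain with the highest mean of this list (88.5 TPM), differed by 0.06 (SE 0.20).

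All 19 adaptors and effectors were tested, with 2 called higher and 1 lower. FRS2, the docking protein of FGF receptors, rose from 8.94 to 18.8 TPM (log2 difference 0.99, limma adjusted P = 0.0277). SOS2, which loads RAS with GTP, rose from 9.30 to 14.9 TPM (0.62, limma adjusted P = 0.0538). GRB2, the adaptor between FRS2 and SOS, held 27.3 and 53.0 TPM in controls 1 and 2, against 19.3 and 22.2 TPM in the libraries labelled knockout (-0.85, SE 0.32, limma adjusted P = 0.159). The GRB2 call was lost with no filter, with no variance trend, with all 12 libraries in 1 fit and without either library labelled knockout, and without control 2 the GRB2 difference was -0.38 and was not called. SOS2 was not called without control 1 or library 1 labelled knockout. HRAS, the most abundant of this list (272 TPM), differed by -0.24 (SE 0.08) and did not reach the fold threshold.

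Among the 16 tested of 17 response genes and feedback inhibitors, 3 were called, all higher. SPRED2, an inhibitor of RAS signalling, rose from 4.64 to 9.72 TPM (log2 difference 0.92, limma adjusted P = 0.0320). SPRED3 rose from 1.57 to 3.03 TPM (0.64, limma adjusted P = 0.0900). EGR1, an immediate early transcription factor, rose from 0.893 to 2.54 TPM (0.90, limma adjusted P = 0.0339) and passed the filter through the libraries labelled knockout alone. CCND1, the most abundant of this list (495 TPM), differed by 0.02 (SE 0.07). SDC1, GPC1, SOS2 and SPRED3 kept their direction with FPKM and with median ratio scaling but were no longer called, and the count was then 6. SPRED3 was also not called without library 1 labelled knockout, and GPC1 not without control 2.

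In the overexpression comparison 56 pathway genes were tested, of which 0 were called higher and 2 lower, beside 1.93% of all genes called, and both passed the filter through the controls alone. Besides FGF11, this was the proteoglycan SDC2, at 4.98 and 5.08 TPM in the controls and between 0.0958 and 0.400 TPM in the 6 libraries labelled overexpression. The groups lay far apart, with a log2 difference of -2.30 (SE 0.15, limma adjusted P = 5.32e-04). Neither gene was tested when a control was left out, and the count over the lists was 1 without control 4 and 4 without library 87-3. GPC1, called in the knockout comparison, differed here by 0.61 (SE 0.27, limma adjusted P = 0.832) and was not called.

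**Figure D4:**
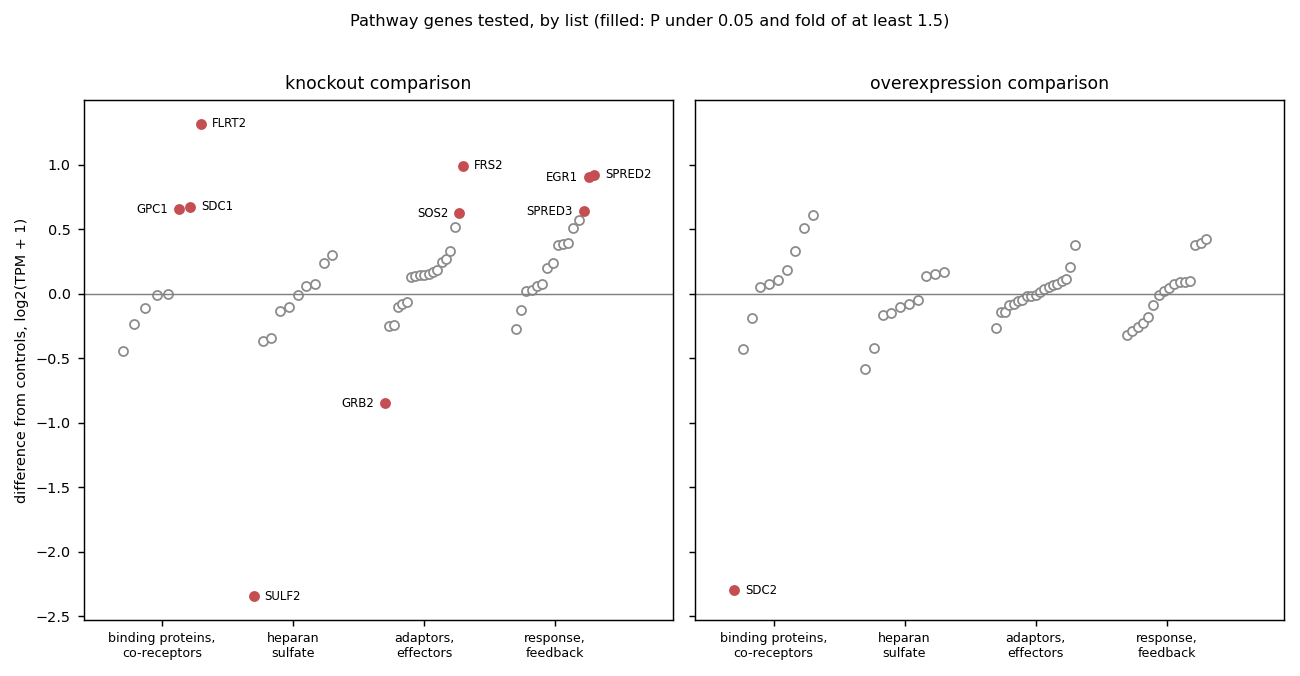
Difference from the controls on the log2(TPM + 1) scale (vertical axis) of the pathway genes tested, by list (horizontal axis), in the knockout (left) and overexpression (right) comparisons. Each point is a gene, filled and named where called. The other genes of the FGF family are left out. SULF2 at -2.34 and SDC2 at -2.30 lie farthest from 0.

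Between the line labels, 11 of 56 pathway genes tested were called, 9 of them with an adjusted P under 0.05, beside 14.6% and 10.8% of all genes. The median span was 0.35 over these genes and 0.30 over all genes. Of the response genes and feedback inhibitors 4 were called, namely DUSP5, ETV4, ETV5 and SPRED2, which are named here after their values were seen. DUSP5, a phosphatase of ERK, had means of 13.3 ± 0.638 TPM in line 79, 28.4 ± 1.46 TPM in line 86 and 36.1 ± 1.69 TPM in line 87 (SD, n = 2 each), against 24.1 ± 1.21 TPM in the controls. Its span was 1.37 (limma adjusted P = 7.24e-04). ETV4, a transcription factor induced by FGF signalling, had means of 24.1, 31.3 and 39.3 TPM in lines 79, 86 and 87, and its relative ETV5 had means of 36.2, 55.1 and 53.1 TPM. SPRED2 had means of 11.9, 20.4 and 15.1 TPM. Among the line labels these 4 were lowest in line 79, as were the means of FGF1, FGF5, FGFR1 and FGFRL1. The means of FGF2, FGFR3, FGFR4 and FGFBP1 were highest there. EGR1 of the response genes, which was not called, had means of 1.79 TPM in line 79 and 1.13 TPM in line 87.

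The genes most like FGF1, FGF2, FGF5 and FGFR1 were found by Pearson's r of log2(TPM + 1) over the 8 libraries of the overexpression set, among 11159 genes with a mean of at least 5 TPM. These libraries fall into pairs by line label, so r is a description. For FGF1 they were C2CD5 (r = 0.995) and AASS (0.992), and for FGF2 FRG1HP (0.978) and an entry with a clone name (0.993). For FGF5 they were PLA2G4A and KITLG (both r = 0.982), and for FGFR1 PCCA (0.982) and ESD (0.968).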

How the data were processed

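Gene levels were measured by RNA sequencing of 12 T24 libraries. Per the study's methods, reads were cleaned with fastp, aligned to hg38 with Hisat2 and quantified with Stringtie. Versions, strandedness and annotation release are not given in the sources used here, and the labels name polyA RNA where the methods name depletion of ribosomal RNA. The deposited tables give 3 values per gene, namely coverage (the average read depth over its bases), FPKM (fragments by length and library size) and TPM (transcripts by length, with an equal sum in every library). The deposited tables hold no read counts, so no count test was run. Aligned bases were taken from the most common ratio of coverage to FPKM. Without counts the counting error behind TPM could not be modelled, so errors are those seen between libraries.

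Groups, line labels and library code series were taken from the sample labels, and genes from the gene names. The test was limma (version 3.58.1, under R 4.3.3) with lmFit and eBayes and a trend in the variance, run on log2(TPM + 1), a scale that understates changes of low genes. Tested genes had 1 TPM or more in at least 2 libraries of the comparison. Calls needed an unadjusted P under 0.05 and a fold of at least 1.5, and Benjamini-Hochberg adjusted P values over all genes tested are given beside them. The line labels and controls 3 and 4 shared 1 fit. U11, summed over its entries, was compared with an exact permutation test of the means. The fits were tested on simulated data. Other steps used pandas 2.3.3 and numpy 2.4.6 under Python 3.11.15, with scipy 1.17.1 for the permutation tests and matplotlib 3.10.9 for figures.

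The members and lists were chosen with earlier results of these data known. Named were all 9 members, every pathway gene called in the knockout or the overexpression comparison, the gene with the highest mean TPM of each list, and the 2 genes most like each member with a mean of at least 5 TPM, a result not reported here for FGFRL1. The alternatives were a pseudocount of 0.1, FPKM, median ratio scaling, rescaling over 19507 protein-coding genes without histone and mitochondrial genes, no filter or a filter in every library, no trend, adjusted P, all 12 libraries in 1 fit, blocks, line means and each library left out in turn. Gene coordinates are those of the deposited tables.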

Additional observations from a re-analysis of the deposited data

Results flagged for a closer look

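FGFR3 in library 79-3 stood at 1.14 TPM, while the other 5 libraries labelled overexpression lay between 0.435 and 0.659 TPM. Its gap to the nearest of them was 0.685 of the whole range, above the limit of Dixon's test for 6 samples. Chance passes this limit in about 1 group in 20 when samples are independent. These libraries come in pairs by line label, so that rate need not hold, and the nearest value was that of library 79-1.

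FGF1, FGF2 and FGFR1 differed between line labels 79, 86 and 87 by limma's F test, with adjusted P values of 0.0033, 0.0063 and 0.0370. The methods describe monoclonal selection for the overexpression, and what the line labels stand for is not given in the sources used here. An effect of U11 and a difference between clones cannot be told apart in this design.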

How the results depend on the processing

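Over all alternatives, FGF1 and FGF2 kept direction and call in the knockout comparison (log2 differences 0.81 to 1.12 and 1.07 to 1.49, with limma adjusted P from 8.42e-04 to 0.177 and from 3.67e-04 to 0.183). FGFBP1 kept its call under the 11 alternatives that tested it (-2.41 to -1.38). It was not tested without either control or with 1 TPM in every library. Except with no filter, FGFBP1 entered these tests through the controls alone. With no filter, limma adjusted P values were 0.0934 for FGFBP1, 0.109 for FGF1 and 0.112 for FGF2. Between line labels, FGF1 and FGF2 kept their calls under all 15 alternatives. In the knockout set, deviations from the group mean had a correlation of 0.0244 between same-numbered libraries over 14356 genes. This check could not exclude pairing in a part of the genes, and MYC lay apart by replicate number under both labels. With the replicate block, members called stayed 3 and pathway genes called 10, and the limma adjusted P values were 0.0927 for FGF1, 0.0581 for FGF2 and 0.0502 for FGFBP1, while 147 genes of all tested had an adjusted P under 0.05 with the fold, against 984 without it.

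The count of pathway genes called in the knockout comparison was 6 with FPKM and 6 with median ratio scaling, against 10. In the overexpression comparison it was 1 with 1 TPM in every library and 1 with adjusted P, against 2, and 1 (without control 4) to 4 (without library 87-3) when single libraries were left out. Members called in line 79 were 3 with FPKM, 3 with no filter, 2 with adjusted P and 3 with the library code series as a block, against 5, and 3 to 5 when single libraries were left out. Between line labels the count was 2 (without library 86-3) to 5 (without library 87-3) when single libraries were left out, against 3.

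Signs turned for 15 values of members that were not called. FGFRL1 in the knockout comparison was -0.026 with FPKM and -0.073 with median ratio scaling. When single libraries were left out, the ranges were -0.21 to 0.353 for FGFRL1 and -0.032 to 0.539 for FGF5 in the knockout comparison, -0.095 to 0.104 for FGFR1 in the overexpression comparison, -0.123 to 0.209 for FGFR4 in line 86, and, in line 87, -0.135 to 0.063 for FGFR1, -0.206 to 0.308 for FGFR4 and -0.029 to 0.327 for FGFBP1. Over all genes, calls were 173 with FPKM, 175 with 1 TPM in every library and 26 with adjusted P in the overexpression comparison, against 304. With FPKM they were 790 in line 79, 322 in line 86 and 456 in line 87, against 1254, 568 and 809. With 1 TPM in every library they were 370 in line 86 and 503 in line 87, and with adjusted P 216 and 418. The causes were not tested. With 2 libraries a group, differences within the spread cannot be told from none.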

Other observations

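MYC, a response gene singled out after its values were seen, lay apart within the knockout set between replicate numbers 1 and 2 under both labels. It stood at 33.8 TPM in control 1 and 24.1 TPM in library 1 labelled knockout, and at 0.966 TPM in control 2 and 1.95 TPM in library 2 labelled knockout. In the overexpression set MYC ranged from 1.87 to 3.97 TPM. The knockout difference of MYC was 0.06 on the log2(TPM + 1) scale (SE 1.66).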
